A study of Mus musculus with 10 samples.

Results

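The olfactory receptor (OR) genes examined here are those of mouse chromosome 14 with symbols Olfr720 to Olfr750 and Olfr1507 to Olfr1513, the second range being the cluster of Olfr1507, also called MOR28. They were chosen by symbol number, from probe sets to which the array annotation gives a single OR gene, and the rule itself uses no measured value. This gave 32 probe sets, 27 in the first range and 5 in the second, of 1034 OR probe sets with 1 symbol and 35556 probe sets in all. A RefSeq gene table places all 32 genes on chromosome 14. Olfr720 lies apart from the others, Olfr722 to Olfr750 form the large cluster, and Olfr1512, Olfr1510, Olfr1509, Olfr1508 and Olfr1507 follow each other in this order in the other.

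RNA of the whole main olfactory epithelium (MOE), where odors are sensed, was hybridised to 10 Affymetrix Mouse Gene 1.0 ST arrays, and all mice were 5 weeks old. Of these, 4 came from H2be-GF mice, in which a transgene under the Omp promoter (olfactory marker protein) expresses FLAG-tagged histone variant H2BE, and 6 came from wild-type (WT) mice of the same age. Per the study's methods the H2be-GF mice derive from 1 founder line, bred with C57Bl/6, that carries many copies of the transgene and expresses it well above the endogenous gene, the transgene is on in mature olfactory neurons but silent in a band of neurons near zone 2 of the epithelium, the endogenous H2be gene is intact in both genotypes, and an array's RNA is a pool of animals, more of them per H2be-GF array.

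Each mature olfactory neuron expresses 1 OR gene, from 1 allele, and the receptor it has chosen sets both the odors it responds to and the place in the olfactory bulb to which its axon runs. ORs are seven-helix receptors that signal through the G protein subunit encoded by Gnal, and they lie in genomic clusters whose members are often descended from a shared ancestor. The Olfr1507 cluster is the one next to which the first OR enhancer, the H element, was found. In mice the H element is needed for the choice of Olfr1507, Olfr1508 (MOR10) and Olfr1509 (MOR83), which lie nearest to it. The comparison of H2be-GF with WT asks which receptors gain or lose representation when H2BE is forced on in mature neurons. In whole tissue the signal of an OR rises and falls with the neurons that express it. The array signal alone cannot tell fewer such neurons from less RNA per neuron.

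Sequence upstream of the genes was taken from RefSeq windows on build GRCm38.p6 that run from 250 bases before to 50 bases after each annotated gene start, and 26 of the 32 receptors matched. Olfr1507, Olfr1512, Olfr727, Olfr728, Olfr735 and Olfr741 had no window, so none of their sequence is shown. Olfr725 and Olfr726 are shown because both fell and because their windows share a stretch. In a local alignment of all 325 pairs of windows theirs had the second best score, with 169 of 186 aligned columns identical (90.9%). In a global alignment, over their whole length, these windows were 45.5% identical. The stretch, in capitals, lies at bases 105 to 284 of the Olfr725 window (chr14:50035451-50035750, minus strand) and at bases 1 to 186 of the Olfr726 window (chr14:50084630-50084929, minus strand). The gene model of Olfr725 spans 6148 bases, so that its window surrounds the start of an upstream exon. The model of Olfr726 spans 966 bases and opens at the start codon, so that its window ends 50 bases into the coding sequence.
Olfr725: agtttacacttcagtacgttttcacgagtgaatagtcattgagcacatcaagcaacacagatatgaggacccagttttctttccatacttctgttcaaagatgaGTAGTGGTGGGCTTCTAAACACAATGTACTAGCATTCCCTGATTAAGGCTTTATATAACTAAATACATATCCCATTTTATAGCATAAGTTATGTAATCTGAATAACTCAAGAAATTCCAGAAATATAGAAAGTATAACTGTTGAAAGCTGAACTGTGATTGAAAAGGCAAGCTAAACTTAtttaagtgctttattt
Olfr726: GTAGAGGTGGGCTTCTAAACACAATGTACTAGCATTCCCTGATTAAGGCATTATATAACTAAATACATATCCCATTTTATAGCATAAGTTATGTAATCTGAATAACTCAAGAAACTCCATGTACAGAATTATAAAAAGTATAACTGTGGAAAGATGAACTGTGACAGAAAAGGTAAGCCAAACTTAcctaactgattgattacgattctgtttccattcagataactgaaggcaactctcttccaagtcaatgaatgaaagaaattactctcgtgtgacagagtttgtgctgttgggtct

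The windows of Olfr1508 (chr14:52467412-52467711, minus strand) and Olfr1509 (chr14:52450143-52450442, plus strand) are shown for the H element cluster, with the letters TAATGA on either strand in capitals, a core of the kind that homeodomain factors such as Lhx2 bind. Each window holds it at 2 places. The window of Olfr1510, in the same cluster, does not hold TAATGA, and Olfr1507 and Olfr1512 have no window. TAATGA occurs in 11 of the 26 chromosome 14 windows (42.3%), in 28.8% of 947 OR windows and in 9.78% of all 32851 windows in the table. The letters TAATTA occur in 6 of the 26 (23.1%), in 18.6% of OR windows and in 5.29% of all windows. The windows of Olfr725, Olfr726 and Olfr742, which fell, hold neither TAATGA nor TAATTA. Nor do those of Olfr732 and Olfr733, which changed above 0, or of Olfr722, Olfr738, Olfr739, Olfr743 and Olfr744. Olfr1507, Olfr727 and Olfr741, which also fell, have no window. The letters CCCNNGGG, the core of the motif of Ebf factors, occur in 0 of the 26, in 3.06% of OR windows and in 13.7% of all. These matches describe the letters only. As with Olfr726, gene models of other receptors here open at the start codon, Olfr720 and Olfr729 among them. Such windows need not hold a transcription start, so that the shares may compare unlike regions.
Olfr1508: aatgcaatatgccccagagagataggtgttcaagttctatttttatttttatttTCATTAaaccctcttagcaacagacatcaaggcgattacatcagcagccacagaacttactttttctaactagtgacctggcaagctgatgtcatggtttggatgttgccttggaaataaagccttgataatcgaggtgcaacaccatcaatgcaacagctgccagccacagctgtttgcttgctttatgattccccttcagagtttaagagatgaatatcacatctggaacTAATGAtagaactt
Olfr1509: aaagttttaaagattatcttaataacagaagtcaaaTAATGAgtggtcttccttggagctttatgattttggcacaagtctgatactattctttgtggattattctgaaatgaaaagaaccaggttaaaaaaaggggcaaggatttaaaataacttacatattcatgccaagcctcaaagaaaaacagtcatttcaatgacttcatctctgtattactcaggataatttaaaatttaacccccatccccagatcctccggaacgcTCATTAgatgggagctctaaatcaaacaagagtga

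Array medians lay between 7.74 and 7.91, on the log2 scale of the deposited signals, and any 2 arrays correlated at 0.969 to 0.988. Xist, which females express, divided the arrays into a set of 5 with at least 11.69 (H2be-GF 1 and 2, WT 1 to 3) and a set of 5 with at most 4.61 (H2be-GF 3 and 4, WT 4 to 6), called Xist-high and Xist-low here. Of 17 markers of mature olfactory neurons measured, limma called 0 of them over all probe sets, with 3 lower and 0 higher at an unadjusted p under 0.05. Of all probe sets 4.07% were lower and 4.35% higher at that limma p. The 3 were S100a5 at -0.21 (SE 0.06), Cidea at -0.21 (SE 0.08) and Cnga4 at -0.13 (SE 0.06). The summed linear signal of the 17 lay between 59328 and 61483 on H2be-GF arrays and between 62061 and 65887 on WT arrays, so that it was lower on every H2be-GF array. Their mean log2 signal, in which bright markers weigh no more than others, lay between 11.45 and 11.50 on H2be-GF arrays and between 11.49 and 11.59 on WT arrays and thus overlapped, and 11 of the 17 changed below 0. All 17 had a mean above 5. The part of this shift in the receptor changes was not tested.

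Of the 29 chromosome 14 receptors with a mean log2 signal above 7, 6 fell in H2be-GF arrays and 0 rose. They were Olfr1507 in the H element cluster and Olfr725, Olfr726, Olfr727, Olfr741 and Olfr742 in the large cluster, with H2be-GF signals at 0.655 to 0.795 of the WT level. A call here means a limma p under 0.05 when adjusted across the 748 ORs of this brightness, the adjustment that the study's methods describe. The 6 are 20.7% of the 29, where limma called 5.88% of all 748 lower, 4.01% higher and 9.89% either way. At an unadjusted p under 0.05 there were 10 lower and 1 higher of the 29, beside 10.8% lower and 12.2% higher of the 748. The 6 called receptors were also those whose H2be-GF arrays all lay below the WT arrays, as did 5.48% of the 748. The median change of the 29 was -0.16 on the log2 scale (H2be-GF minus WT), with 21 of 29 below 0 (72.4%, beside 46.3% of all 748), and that of the 719 other OR probe sets was 0.02, with 45.2% below 0. The other 3 receptors, Olfr746, Olfr748 and Olfr749, were too dim for this test, with means in either genotype of 5.63 to 6.39 and changes of -0.02 to 0.12. Adjusted over all 23194 probe sets with a mean above 5, limma called 0 of the 32 receptors, where it called 0.0388% lower and 0.0474% higher, and at an unadjusted p under 0.05 there were 10 lower and 1 higher of the 32, where the shares over all probe sets were 4.07% and 4.35%.

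**Figure D1:**
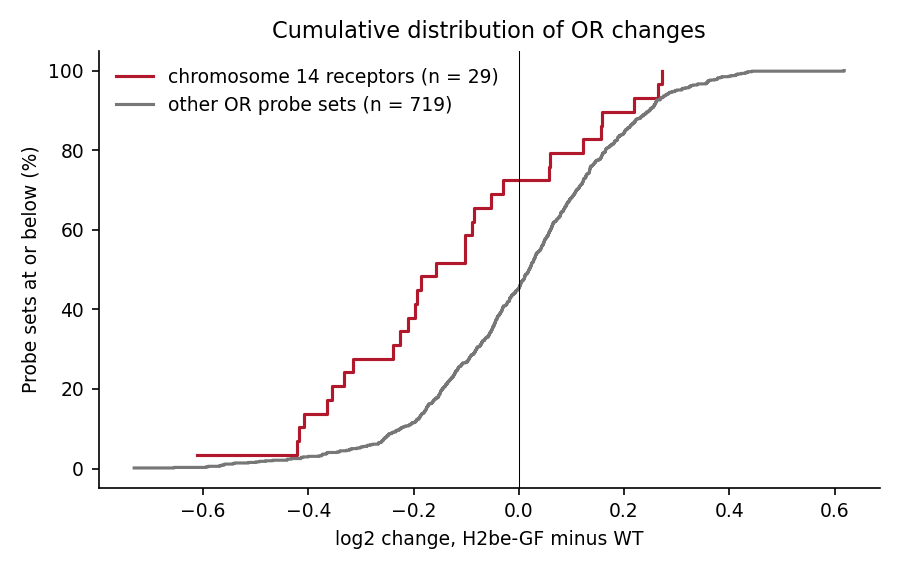
Cumulative share of OR probe sets (%) at or below each log2 change (H2be-GF minus WT), for the 29 chromosome 14 receptors (red) and the 719 other OR probe sets (gray), all with a mean signal above 7. The red line lies left of the gray one over most of its length, with medians of -0.16 and 0.02, and ends at 0.27 where the gray one goes on to 0.62.

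The count of 6 fell to 3 without the array H2be-GF 2, when Olfr725, Olfr726 and Olfr741 no longer passed (limma, adjusted p = 0.0836, 0.0522 and 0.0503 over ORs). Without that array limma called 33 of all 748 ORs, against 74 with every array. The count of receptors was 0 of 29 in the Xist-high set alone and in the Xist-low set alone, each of 2 H2be-GF and 3 WT arrays, where limma called 0 of all 748 ORs. Over the same 29 receptors the change had the same sign in both sets at 23 (79.3%), at 18 below 0 and at 5 above. The same share over all 748 ORs was not computed, so whether 79.3% is particular to these receptors was not tested.

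Olfr1507 had the largest fall of the 29. Its log2 signal (probe set 10419723) was 9.50, 9.49, 10.02 and 9.95 in H2be-GF 1 to 4, against 10.19, 10.27, 10.31, 10.58, 10.35 and 10.39 in WT 1 to 6. All 4 H2be-GF arrays lay below all 6 WT arrays, and H2be-GF 1 and 2 lay well below H2be-GF 3 and 4. The means were 9.74 ± 0.28 (SD, n = 4) for H2be-GF and 10.35 ± 0.13 (SD, n = 6) for WT. The change was -0.61 (SE 0.12), and limma gave an adjusted p of 0.0105 over ORs and of 0.143 when every probe set counted. It was -0.77 in Xist-high and -0.46 in Xist-low arrays, a difference that limma did not call (unadjusted p = 0.0532 for the interaction, adjusted p over ORs = 0.997). Neither set reached a call by itself (limma adjusted p over ORs of 0.0651 and 0.235).

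The remaining genes of the cluster were not called. Olfr1508, the neighbor of Olfr1507, was at 9.45, 9.42, 9.66 and 9.63 in H2be-GF, against 9.58, 9.50, 9.83, 9.86, 9.81 and 9.86 in WT, so that the genotypes overlapped, with a change of -0.20 (SE 0.09, limma adjusted p = 0.231 over ORs, and 0.0398 with a trended robust variance). Olfr1509, a receptor for the sulfur odorant (methylthio)methanethiol of mouse urine, was at 10.07, 9.94, 10.19 and 10.20 in H2be-GF, against 10.09, 10.05, 10.28, 10.09, 10.26 and 10.15 in WT, with a change of -0.05 (SE 0.08, limma adjusted p = 0.723). Here the arrays of the genotypes were interspersed. Olfr1510 lay between 8.02 and 8.28 in H2be-GF and between 8.15 and 8.52 in WT, with a change of -0.19 (SE 0.08), and Olfr1512 between 7.35 and 7.67 in H2be-GF and between 7.25 and 7.71 in WT, with a change of 0.12 (SE 0.10). Their limma adjusted p-values over ORs were 0.215 and 0.519.

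The change of Olfr1507 exceeded that of both genes that the H element also serves. The log2 difference of Olfr1507 and Olfr1508 within an array was lower in H2be-GF by 0.41 (SD 0.16 over 4 H2be-GF and 0.12 over 6 WT arrays), and that of Olfr1507 and Olfr1509 was lower by 0.56 (SD 0.18 and 0.17). Neither overlapped between the genotypes, and both had an exact two-sided permutation p of 0.00476, the smallest that the 210 splits of these arrays can give, and likewise 0.00476 adjusted over the 2 comparisons. In Xist-low arrays alone the first difference was -0.26 and the second -0.48, and in Xist-high arrays -0.57 and -0.63 (exact permutation p = 0.1 each, the smallest possible there). These comparisons were chosen with the fall of Olfr1507 known, and both rest on its values.

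**Figure D2:**
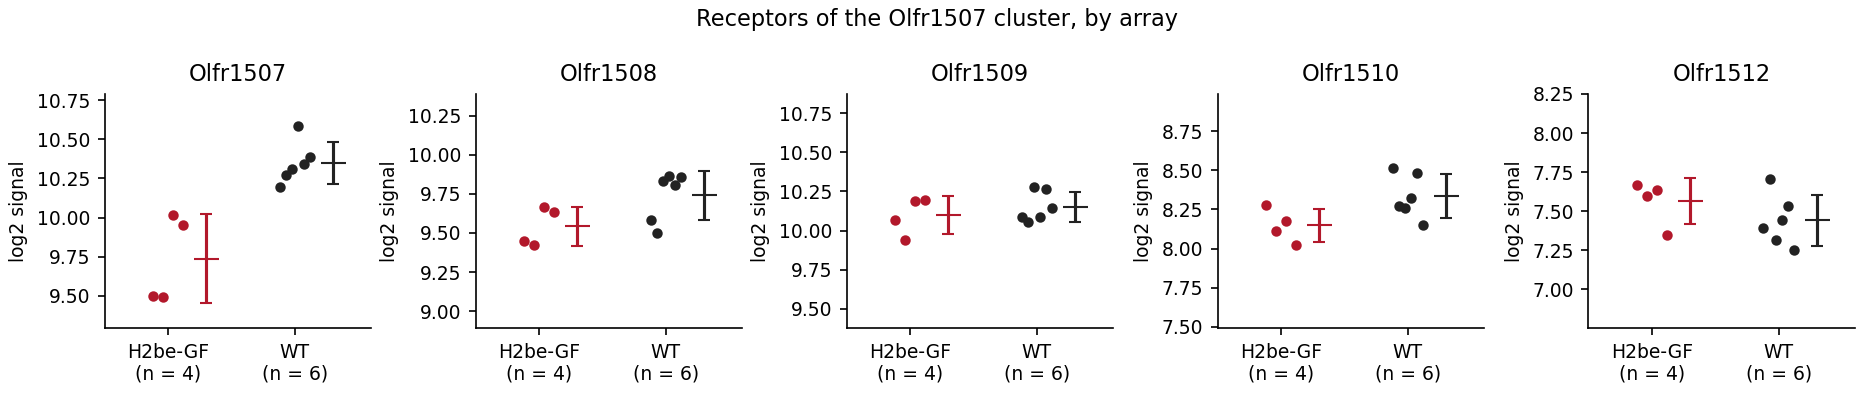
Log2 signal of the 5 receptors of the Olfr1507 cluster on each H2be-GF (red, n = 4) and WT (black, n = 6) array, with mean and SD beside the points; each panel spans the same range. Olfr1507 lies between 9.49 and 10.02 in H2be-GF and between 10.19 and 10.58 in WT, while the genotypes overlap at the other 4 genes.

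In the large cluster the falls lay side by side at 2 places. The first was the run of Olfr725, Olfr726 and Olfr727, which belong to the receptor family MOR246. Olfr726 was at 10.25, 10.34, 10.55 and 10.61 in H2be-GF, against 10.79, 10.93, 10.69, 11.03, 10.87 and 10.86 in WT. Its change was -0.42 (SE 0.09, limma adjusted p = 0.0132 over ORs), and every H2be-GF array lay below every WT array.

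Olfr725 was at 9.43, 9.50, 9.72 and 9.77 in H2be-GF, against 9.93, 10.05, 9.82, 10.14, 9.95 and 9.92 in WT, a change of -0.36 (SE 0.09, limma adjusted p = 0.0226). Olfr727 was at 10.41, 10.45, 10.61 and 10.69 in H2be-GF, against 10.87, 10.93, 10.82, 10.94, 10.91 and 10.93 in WT, a change of -0.36 (SE 0.07, limma adjusted p = 0.0105). Neither gene overlapped between genotypes. At all 3 genes the Xist-high arrays H2be-GF 1 and 2 lay below H2be-GF 3 and 4. The changes of Olfr725, Olfr726 and Olfr727, in turn, were -0.47, -0.50 and -0.44 in Xist-high arrays and -0.26, -0.34 and -0.27 in Xist-low arrays (unadjusted interaction p of 0.196, 0.293 and 0.199, none called by limma). The call of Olfr725 was also lost without H2be-GF 1 (limma adjusted p over ORs of 0.0811).

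All 6 measured MOR246 genes changed below 0, with a median of -0.34, and the 3 just described were called, beside 46.3% of all 748 ORs below 0 and 5.88% called lower. The family was singled out after its values were seen. Olfr731 was at 7.99 to 8.41 in H2be-GF and 8.21 to 8.63 in WT, with a change of -0.32 (SE 0.10) and a limma adjusted p over ORs of 0.0627, just outside the threshold. Olfr729 changed by -0.21 (SE 0.09) and Olfr728 by -0.10 (SE 0.09). Olfr728 had 9.84, 9.92, 9.76 and 10.19 in H2be-GF, values that spread past the 9.86 to 10.12 of WT at both ends. Genes of a family can share probe sequence, and the probe sequences were not used here, so that the MOR246 signals may not be independent of each other.

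The other place was the pair Olfr741 and Olfr742 of family MOR106, which follow each other on the chromosome. Olfr742 had the smallest adjusted p of the receptors. It was at 8.67, 8.71, 8.68 and 8.70 in H2be-GF, a narrow range, against 8.99, 9.19, 9.10, 8.97, 9.18 and 9.22 in WT. The change was -0.42 (SE 0.07), for which limma gave an adjusted p of 0.00599 over ORs and 0.0598 with every probe set counted, and it was nearly equal in Xist-high (-0.40) and Xist-low (-0.43) arrays. Olfr741 was at 9.98, 9.90, 10.16 and 10.05 in H2be-GF, against 10.44, 10.39, 10.28, 10.45, 10.31 and 10.26 in WT, a change of -0.33 (SE 0.07, limma adjusted p = 0.013 over ORs). All H2be-GF arrays lay below all WT arrays for both genes.

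Of the 13 MOR106 genes measured, 10 were bright enough for the test, 8 of them changed below 0 and 2 above, and the median was -0.13. The next genes on either side of the pair were Olfr740, which changed by -0.16 (SE 0.13, limma adjusted p = 0.519), and Olfr743, which changed by -0.24 (SE 0.12, limma adjusted p = 0.252). The 2 above 0 were Olfr736 at 0.16 (SE 0.16) and Olfr745 at 0.06 (SE 0.10), and both were below 0 in Xist-low arrays.

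**Figure D3:**
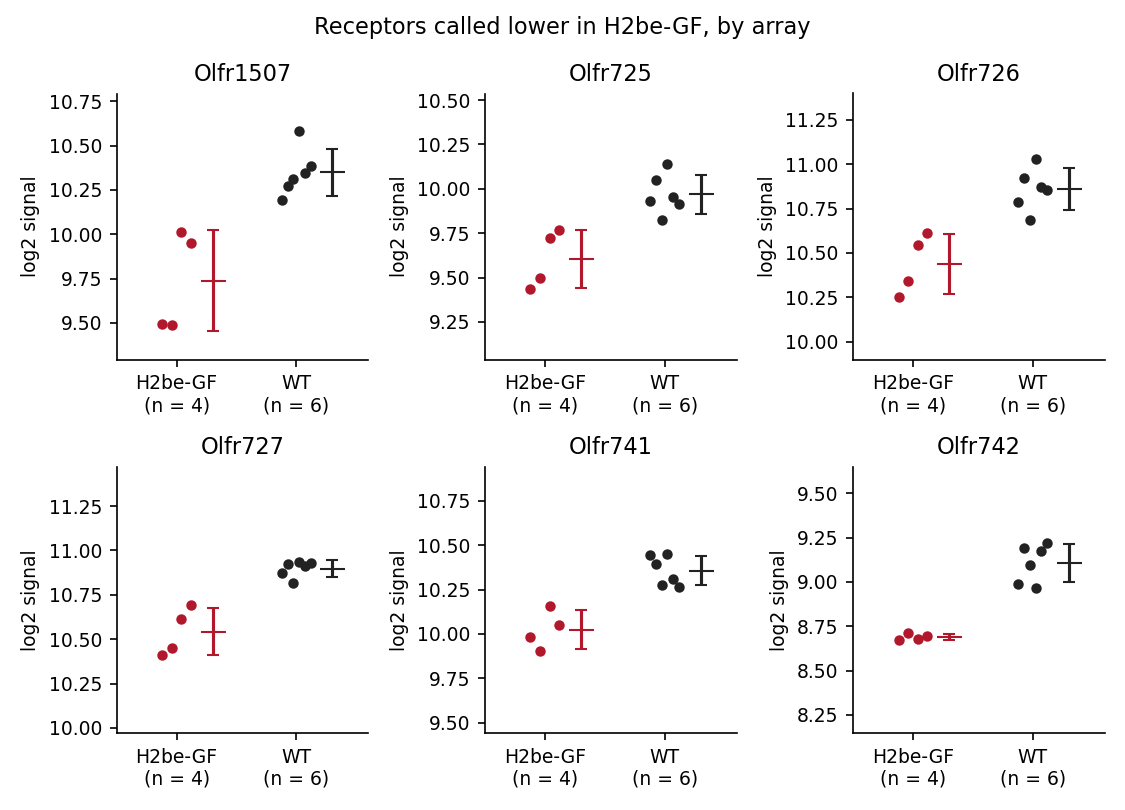
Log2 signal of the 6 called receptors on each H2be-GF (red, n = 4) and WT (black, n = 6) array, with mean and SD beside the points; each panel spans the same range. No H2be-GF point reaches the lowest WT point of its gene, and the gap is 0.26 for Olfr742 and 0.06 for Olfr725.

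Between these places lay 5 successive genes, Olfr732 to Olfr736, all with changes above 0 and none called; in Xist-low arrays Olfr736 was below 0. Olfr733 came closest, at 9.61, 9.68, 9.61 and 9.49 in H2be-GF, against 9.48, 9.37, 9.15, 9.41, 9.20 and 9.37 in WT. Its 4 H2be-GF arrays lay above all WT arrays, by 0.007 at the narrowest, with a change of 0.26 (SE 0.08) and a limma adjusted p over ORs of 0.0517. Of the 748 ORs 4.01% lay higher without overlap, and of the 29 receptors 1. With a second quantile normalization, with ORs centered on their array mean, or with a constant of 16 added before log2, the limma adjusted p of Olfr733 passed the threshold, at 0.0491, 0.0267 and 0.0485. It also passed with a trended robust variance (0.0055) and without the array WT 1 (0.0415). These were 5 of the 20 alternatives that kept the filters, and in the other 15 Olfr733 was not called. There its limma adjusted p reached 0.152 when 1 array was left out and 0.474 at most. With an OR filter at a mean of 8, limma called 8 of 20 receptors, 7 lower and 1 higher. Olfr733 was the only receptor above 0 with an unadjusted limma p under 0.05.

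Olfr735 changed by 0.27 (SE 0.13), between 7.63 and 8.01 in H2be-GF and between 7.09 and 7.82 in WT. Olfr732, of family MOR241 like Olfr733, changed by 0.22 (SE 0.12), and Olfr734 by 0.16 (SE 0.11). Their limma adjusted p-values over ORs were 0.231, 0.338 and 0.429. The windows upstream of Olfr732 and Olfr733 were 74.6% identical in a global alignment, where those of receptors of different families were 45.8% to 55.1% identical. By this alignment pairs within a family varied, within MOR106 from 43.1% to 96.3%. The window of Olfr722, also of MOR241, was 51% identical to that of Olfr732 and 53% to that of Olfr733. Median identities within MOR106 and MOR246 were 51.5% and 52.0%. A global alignment can miss a stretch that lies at different places in 2 windows. Olfr725 and Olfr726 were 45.5% identical by it, and 90.9% over 186 aligned columns in the local alignment. In the local alignment the pairs ranked 1 to 16 of 325 were each of a single family.

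**Figure D4:**
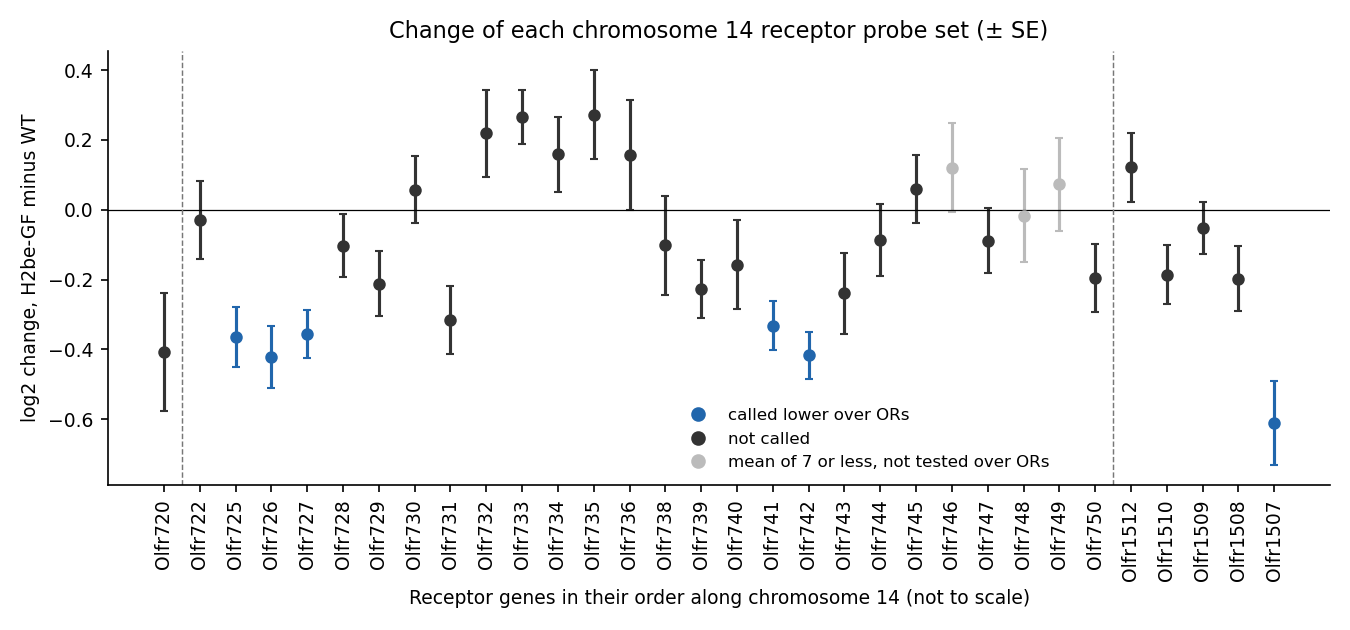
Log2 change (H2be-GF minus WT, ± SE) of the 32 chromosome 14 receptor probe sets in their order along the chromosome, with dashed lines between Olfr720, the large cluster and the Olfr1507 cluster. Blue points are the 6 called lower, gray points the 3 too dim for the test, and the changes from Olfr732 to Olfr736 all lie above 0.

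Olfr720, which stands far from both clusters, was at 7.64, 6.70, 7.33 and 6.92 in H2be-GF, against 7.77, 7.63, 7.22, 7.67, 7.61 and 7.44 in WT. The H2be-GF arrays spread widely (SD 0.42, n = 4, against 0.20, n = 6) and overlapped with WT at H2be-GF 1 and 3. The change of -0.41 (SE 0.17) was not called (limma adjusted p = 0.174 over ORs), although it was nearly as large as that of Olfr726. Without H2be-GF 1 it was -0.57 with a limma adjusted p of 0.0476, and with a trended robust variance the adjusted p was 0.0161. These were 2 of the 20 alternatives that kept the filters, and in the other 18 Olfr720 was not called. When 1 array was left out the change ranged from -0.57 to -0.26, with limma adjusted p-values of 0.0476 to 0.444. The remaining receptors changed by -0.23 (Olfr739, SE 0.08, limma adjusted p = 0.122 over ORs) to 0.06 (Olfr730) without a call.

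**Figure D5:**
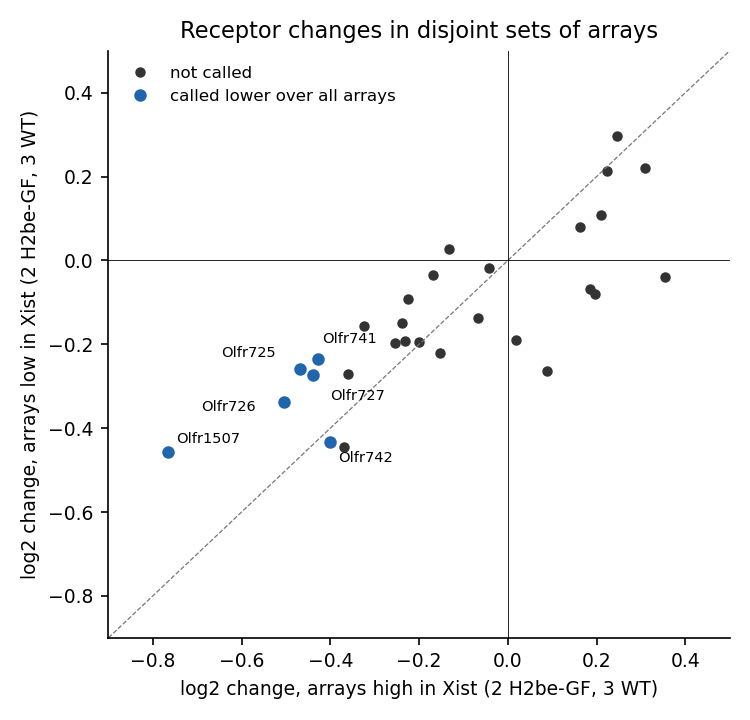
Log2 change (H2be-GF minus WT) of the 29 tested receptors in Xist-high (horizontal) and Xist-low (vertical) arrays, each from 2 H2be-GF and 3 WT arrays; the dashed line marks equal changes. Olfr1507 lies at -0.77 and -0.46, Olfr742 at -0.40 and -0.43, and 23 of 29 points have the same sign on both axes. The share over all ORs was not computed.

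Genes other than receptors that lie around Olfr720 or beside or within the clusters were not called. Of 86 such neighbors on chromosome 14, limma called 0 over all probe sets, where 3 were higher and 5 lower at an unadjusted p below 0.05, and the median change was 0.02. By that adjustment 0 of the 32 receptors were called as well. Of all probe sets 4.35% were higher and 4.07% lower at that unadjusted limma p. The neighbors of smallest p were Gm11100 at -0.87 (SE 0.26), a dim probe set of a gene near Olfr720, Gm6498 at 0.30 (SE 0.09) and Armh4 at 0.17 (SE 0.06). The factors of receptor choice and of OR enhancers gave 1 call among 21, where limma called 0.0474% of all probe sets higher and 0.0388% lower. Lhx2, a homeodomain factor that binds OR enhancers, rose to 11.46 (SD 0.03) on the 4 H2be-GF arrays, against 11.09 (SD 0.06) on the 6 WT arrays, a change of 0.37 (SE 0.06, limma adjusted p = 0.0425 over all probe sets). Ebf1 and Ebf3, of the family that binds OR promoters, were at 0.14 (SE 0.06) each without a call.

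Of 11 zone genes limma called 0, with 2 higher at an unadjusted p under 0.05. Beside these and the marker counts below, 4.35% of all probe sets were higher and 4.07% lower at that limma p. Ncam2, an adhesion molecule of ventral neurons, was at 0.26 (SE 0.05, limma adjusted p = 0.147 with every probe set counted), Nrp1, a receptor that guides axons, at 0.30 (SE 0.08) and Nqo1, an enzyme of dorsal neurons, at -0.14 (SE 0.08). Among markers of other cells limma called 0 of 5 for globose basal cells, 0 of 4 for horizontal basal cells, 0 of 7 for sustentacular cells, 0 of 5 for respiratory epithelium, 0 of 6 for T lymphocytes and 0 of 1 for red blood cells, with 1, 0, 0, 0, 1 and 0 higher and 0, 1, 1, 1, 1 and 1 lower at an unadjusted p under 0.05. In these lists, in that order, the genes of the smallest p were Neurog1 at 0.16 (SE 0.06), Krt15 at -0.54 (SE 0.14), Hes1 at -0.19 (SE 0.07), Foxj1 at -0.16 (SE 0.06), Cd4 at 0.28 (SE 0.07) and Alas2 at -0.32 (SE 0.12). Of 10 markers of immature neurons Lhx2 was the 1 called.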

How the data were processed

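The labels give log2 probe set signals of 10 arrays in a single table, 4 H2be-GF and 6 WT. The authors checked the scans with arrayQualityMetrics, normalised them by sketch quantiles and summarised by IterPLIER in Expression Console (Affymetrix) and deposited log2 values, up to 14.2. Versions and the genome build are not given in the sources used here. Quantile normalization hides a shift shared by most genes, and IterPLIER makes changes of dim probe sets less certain. The labels number the arrays of a genotype as replicates, and p-values thus cover only variation among RNA pools, and the number of arrays limits the precision.

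Gene symbols came from the platform's annotation table (21789 with 1 symbol, 1621 with several, 12146 with none). A RefSeq table of GRCm38.p6 served for gene order and family names. limma 3.58.1 in R 4.3.3 (lmFit, eBayes, two-sided, no covariate) was fitted to 23194 probe sets with a symbol and a mean above 5, with Benjamini-Hochberg adjustment over ORs with a mean above 7 and over all, at a threshold of 0.05. Permutation tests enumerated all splits. Both procedures were tested on simulated data. Windows were aligned with Biopython 1.88, and plots drawn with matplotlib 3.10.9. The members, lists, comparisons and motifs were chosen with earlier results of these data known.

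The rule for names took Olfr1507 to Olfr1513, all receptors called over ORs, the 6 largest changes each way and the 4 highest WT means among Olfr720 to Olfr750, and up to 3 genes of smallest p per list. Other receptors, named to describe families or limits, were chosen after their values were seen. The lists were the neighbors (12 tested genes on each side of a cluster or of Olfr720, and those within), receptor choice and enhancer factors, zone genes and markers of mature and immature neurons, basal, sustentacular and respiratory cells, T lymphocytes and red blood cells. Of several probe sets of a listed gene the one of highest mean was used. The labels do not say whether replicate numbers pair the arrays. Deviations of same-numbered arrays correlated at 0.53, 0.22, -0.42 and 0.26, too few values to decide it. H2be-GF 3 and WT 3, the pair at -0.42, differed in their Xist set. Alternatives covered normalization, an added constant, array weights, the variance model, the Xist set, a block for the replicate number, filters and leaving out each array.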

Additional observations from a re-analysis of the deposited data

How the results depend on the processing

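The median change of the 29 receptors stayed within the spread between arrays under all 21 alternatives, from -0.19 to -0.10, and the scaling alternatives moved the median of all probe sets by less than 0.02. The count of 6 receptors called over ORs was 3 to 7 when 1 array was left out, 10 (9 lower) with a trended robust variance, and 0 with the replicate block, in Xist-high arrays alone and in Xist-low arrays alone. With an OR filter at a mean of 8 it was 8 of 20 receptors, 7 lower and 1 higher, and limma called 55 ORs in all. Of all 748 ORs limma called 74 in the main fit, 33 to 85 when 1 array was left out and 108 with the trended robust variance. With the replicate block limma called 6 of all 748 ORs, and its median change of the receptors was -0.15. Whether the numbers pair the arrays could not be decided. The adjusted p of Olfr1507 over ORs was then 0.0597 at a change of -0.60, and 1 of the 4 H2be-GF arrays correlated best with the WT array of its number. The count of 0 over all probe sets was 6 with a trended robust variance, 1 with the Xist set as covariate, 1 with a filter at a mean of 7, and 0 to 0 when 1 array was left out. Of all probe sets limma called 20 in the main fit, and in these first 3 alternatives 114, 20 and 21. In Xist-low arrays Olfr1509 turned to 0.028, Olfr736 to -0.039 and Olfr745 to -0.080. Olfr745 ranged from -0.011 (without H2be-GF 2) to 0.152 when 1 array was left out.

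Olfr1507 minus Olfr1508 differed by -0.57 in Xist-high and -0.26 in Xist-low arrays, and Olfr1507 minus Olfr1509 by -0.63 and -0.48, each with an exact permutation p of 0.1, the smallest possible there. With the replicate block they were -0.45 and -0.58 (exact p = 0.125, the smallest possible). They ranged from -0.47 to -0.36 and from -0.62 to -0.49 when 1 array was left out. The cause of these shifts was not tested.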

Other observations

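Probe sets that the annotation assigns to 2 receptors at once stand outside the comparison above. The 2 shared by Olfr723 and Olfr724, of family MOR247, which lie between Olfr722 and Olfr725, were at 8.98 ± 0.15 and 9.12 ± 0.13 (SD, n = 4) in H2be-GF and at 8.78 ± 0.15 and 8.93 ± 0.14 (SD, n = 6) in WT. Their changes of 0.20 (SE 0.09) and 0.19 (SE 0.09) were above 0, beside the falls of Olfr725 to Olfr727, and neither was called (limma adjusted p = 0.596 and 0.601 over all probe sets). The probe set shared by Olfr1512 and Olfr1513 changed by -0.16 (SE 0.09) and that shared by Olfr1510 and Olfr1511 by -0.12 (SE 0.08), while Olfr1512's own probe set was at 0.12.

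The windows upstream of Olfr746 and Olfr748, both dim on all arrays, were 96.3% identical, the highest of the 325 pairs. No array stood apart from its genotype in any of the 36 sets of values of the 18 receptors named by the rule, by Dixon's test at the 95% level.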
